A study of Homo sapiens with 2 samples.

Results

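The RUNX and ETO families were examined in a chromatin immunoprecipitation sequencing study of GFI1, a DNA-binding zinc-finger protein that represses genes during blood development. The families comprise 7 genes, RUNX1, RUNX2, RUNX3, CBFB, RUNX1T1, CBFA2T2 and CBFA2T3. The cells were NB4, an established line from acute promyelocytic leukemia that carries the PML-RARA fusion, with no drug treatment listed. Each of 2 libraries was made with a different antibody labelled as raised against GFI1, called here by its catalogue number, ab21061 or sc8558. Neither had a replicate, and their sequencing depth is unknown. A peak was assigned to a gene when its midpoint lay inside the gene's span or within 50 kb of it, on the hg38 build. By this rule 11 of 7687 ab21061 peaks and 7 of 7562 sc8558 peaks belonged to the 7 genes, which are 7 of 20037 protein-coding genes. The immunoprecipitation protocol in the labels names antibodies to PML/RARα, and the sc8558 sample's title reads GFI2, whereas both antibody labels read GFI1. The antibody labels were followed. No control library was analysed here.

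RUNX proteins are the DNA-binding subunits of core-binding factor. CBFB, which does not itself contact DNA, joins them and strengthens their binding. ETO proteins (RUNX1T1, also named ETO or MTG8, with CBFA2T2 and CBFA2T3) do not bind DNA on their own and bring corepressors and histone deacetylases to factors that do. RUNX1 is needed for definitive blood formation, and fusions of RUNX1 with RUNX1T1 and of CBFB with MYH11 drive other acute myeloid leukemias. ETO proteins have also been described as binding partners of GFI1. RUNX genes are known to be read from a distal and a proximal promoter.

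Under the 50 kb rule peaks of both antibodies were assigned to RUNX1, RUNX2 and RUNX3, and 1 peak to CBFB and the ETO genes together. The RUNX3 peaks lay outside the gene, 35.3 and 35.5 kb beyond its span, and were nearer to CLIC4. RUNX1 had 6 ab21061 and 3 sc8558 peaks, RUNX2 had 3 and 3, and RUNX3 had 1 and 1. CBFA2T2 had 1 ab21061 and 0 sc8558 peaks. Thus 4 of the 7 genes had an ab21061 peak and 3 had an sc8558 peak, against 31.7% and 32.4% of all protein-coding genes. CBFB, RUNX1T1 and CBFA2T3 had 0 peaks of either antibody, as did 61.7% of all protein-coding genes under the same rule. A shared region, meaning a place where an ab21061 and an sc8558 peak overlapped and were merged, was present at 3 of the 7 genes and at 24.3% of all protein-coding genes. There were 5 such regions, 2 at RUNX1, 2 at RUNX2 and 1 at RUNX3. With 1 library per antibody no test between antibodies was possible, and the values describe these 2 libraries.

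**Figure D1:**
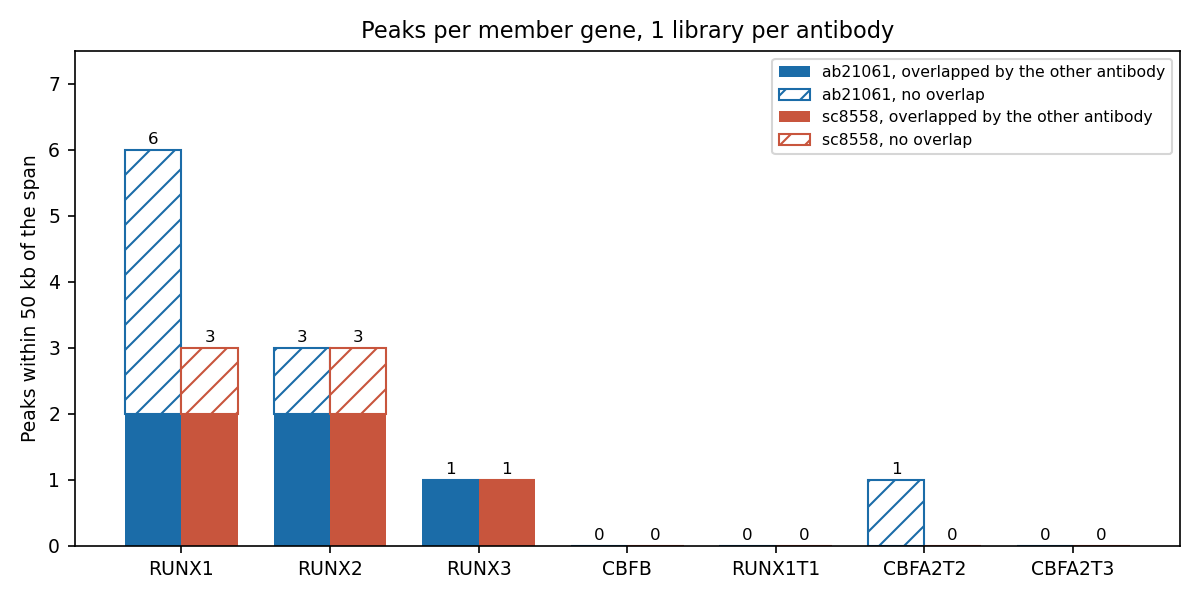
Number of peaks (vertical axis) assigned to each of the 7 genes (horizontal axis) in the ab21061 library (blue, left) and the sc8558 library (red, right), with filled parts for peaks overlapped by the other antibody and hatched parts for peaks without overlap. RUNX1 stands at 6 and 3 peaks with 2 shared in each list, RUNX2 at 3 and 3 with 2 shared, and 3 genes have 0.

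RUNX1, which encodes the main blood subunit, held the highest-scoring peak of the whole of chromosome 21 in both lists. This shared region, at chr21:34884776-34886782, scored 726.25 with ab21061 and 672.47 with sc8558. The score, which the authors' peak caller assigned, ran from 50.01 to 3100 in each list, and ranks peaks only within a list. The ab21061 peak ranked first of 96 on the chromosome and 93 of 7687 in its list, and the sc8558 peak first of 89 and 108 of 7562. The antibodies marked nearly the same bases, since the overlap of 1734 bp was 88% of the ab21061 peak and 97.9% of the sc8558 peak. The region was 2007 bp long, and 5.03% of all 4853 shared regions were longer (median 921 bp).

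The region lay downstream of the proximal start of RUNX1. RefSeq lists that start at position 34888699 on the minus strand, and the nearer edge of the region was 1.92 kb inside the gene from it. Neither list had a peak at the proximal start itself. The 250 bases before it are shown because they are the listed RUNX1 promoter nearest to the strongest region (RefSeq, GRCh38.p14, chr21:34888700-34888949, minus strand). Capitals mark AATC, the core of the GFI1 motif, on either strand. GATT is its reverse complement.
RUNX1 proximal promoter: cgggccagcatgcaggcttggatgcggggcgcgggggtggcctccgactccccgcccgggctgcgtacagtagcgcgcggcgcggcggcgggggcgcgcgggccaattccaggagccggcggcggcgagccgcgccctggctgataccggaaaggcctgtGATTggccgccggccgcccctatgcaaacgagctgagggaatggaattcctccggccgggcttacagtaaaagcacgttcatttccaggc
This stretch held 1 AATC match and no RUNX motif (TGTGGT or TGCGGT, either strand). Among all 35116 listed promoters cut to the same length, 64.8% held AATC, 11% TGTGGT and 5.84% TGCGGT. A match describes the letters and is not a mapped site.

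A second shared region of RUNX1, at chr21:34835208-34836643, scored 259.55 with ab21061 and 268.12 with sc8558. It ranked 8 of 96 and 8 of 89 on chromosome 21. It lay 52.8 kb downstream of the proximal start, measured to its midpoint. The 2 shared regions of RUNX1 covered the ends of RUNX1-AS1, a long noncoding RNA gene that runs on the plus strand, against RUNX1, from 34836313 to 34885052 (48.7 kb). The lower region covered the listed start of RUNX1-AS1 and the upper region, the stronger, covered its other end. Of 18303 annotated long noncoding RNA genes, 185 had an end under a shared region, and 9 had both ends covered. In 6 (0.0328% of all), RUNX1-AS1 among them, the ends lay under 2 different shared regions. RUNX1-AS1 was singled out after this was seen. Its upper end, at 34885052, lay just inside the sc8558 peak, which began at 34885012.

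RUNX1-AS1 was also the only promoter listed in these loci that a shared region covered whole, and its sequence is shown for that reason. Its 250 bases before the start lie at chr21:34836063-34836312, plus strand (RefSeq, GRCh38.p14). Capitals mark AATC and the AP-1 motif TGANTCA on either strand, and in one place the AP-1 match overlaps an AATC match read on the other strand.
RUNX1-AS1 promoter: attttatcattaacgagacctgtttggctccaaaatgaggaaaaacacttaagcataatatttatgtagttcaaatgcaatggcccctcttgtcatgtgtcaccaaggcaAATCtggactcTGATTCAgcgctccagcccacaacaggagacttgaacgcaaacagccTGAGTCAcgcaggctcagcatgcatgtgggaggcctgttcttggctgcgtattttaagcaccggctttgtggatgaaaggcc
The stretch held 2 AATC matches, 2 AP-1 matches and 3 E-boxes (CANNTG), and no RUNX motif. An AP-1 match was present in 6.57% and an E-box in 61.8% of all listed promoters. Of these promoters, taken with 50 bases after the start, 354 (1.01%) lay wholly inside a shared region.

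The remaining RUNX1 peaks were each found with a single antibody and had low to middle scores. At the distal end of the span, where the longest RUNX1 transcripts begin, sc8558 had a peak at chr21:35048772-35049652 with a score of 100.28, which crossed the end of the gene. The nearest ab21061 peak was 21.7 kb away, at chr21:35026134-35027026, with a score of 69.29. That ab21061 peak lay 22.7 kb downstream of the distal end, between the distal and proximal starts, which are 161 kb apart. The enhancer eR1, active in blood stem cells, is known from the same stretch, and whether the peak covers it was not tested. The other ab21061 peaks there scored 69.36, 59.56 and 86.85, at 62.2, 65.4 and 141 kb from the distal end. None of the 4 ab21061 peaks had a listed sc8558 peak closer than 21.3 kb. Weaker sc8558 signal that was not listed as a peak was not examined. The gene table gives no exons, so exon and intron were not separated.

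**Figure D2:**
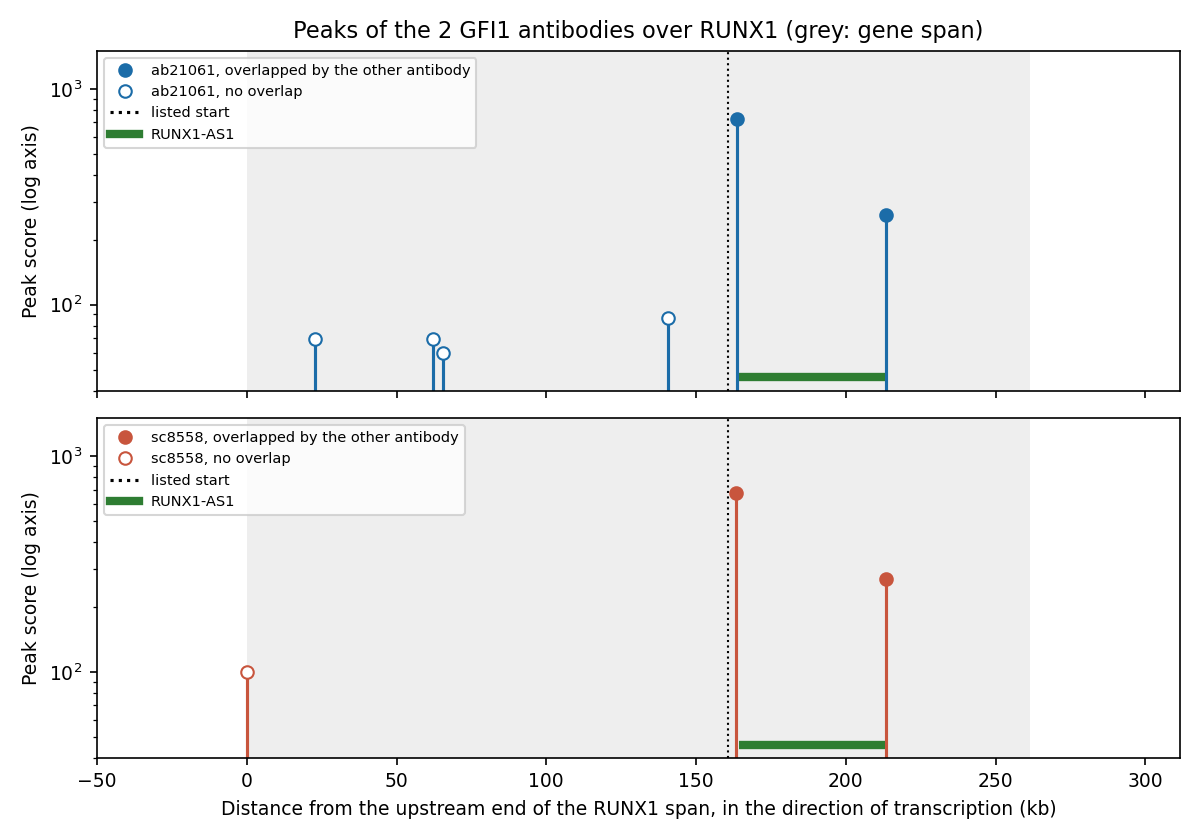
Peak scores (vertical, log axis) against the distance in kb from the distal end of RUNX1 in its direction of transcription, for ab21061 (upper panel) and sc8558 (lower panel), with filled points for peaks overlapped by the other antibody and open points for the rest. The grey band is the gene span, the dotted line the listed proximal start and the green bar RUNX1-AS1, whose ends carry the shared pairs at 726.25 and 672.47 and at 259.55 and 268.12.

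RUNX2, the RUNX gene best known for driving bone formation, had 2 shared regions, both inside the gene and downstream of its proximal start. The stronger, at chr6:45436460-45437390, scored 293.2 with ab21061 and 300.72 with sc8558, ranks 559 and 504 in their lists. The ab21061 peak was contained in the sc8558 peak over all of its 743 bp. The weaker, at chr6:45454034-45454798, scored 99.37 and 88.31. Their midpoints lay 14.7 and 32.1 kb downstream of the proximal start. Each antibody also had 1 peak of its own near that start. The ab21061 peak, at chr6:45415386-45416001, scored 62.9 and lay 6.58 kb upstream of it, measured to the midpoint. The sc8558 peak, at chr6:45424378-45425254, scored 79.91 and lay 2.54 kb downstream. These single-antibody peaks were 8.38 kb from each other.

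The distal and proximal starts of RUNX2 are 93.9 kb apart, and the nearest peak to the distal start was 87.1 kb away for ab21061 and 96 kb away for sc8558. Both promoters of RUNX2 and the distal promoter of RUNX3 are shown, because the peaks of RUNX2 lay nearer to its proximal start and because the distal pair shares a motif. Each is the 250 bases before the start (RefSeq, GRCh38.p14). They lie at chr6:45328080-45328329 and chr6:45422025-45422274 on the plus strand, and at chr1:24965011-24965260 on the minus strand. Capitals mark the RUNX motifs, the GFI1 core and the AP-1 motif, on either strand; ACCACA is the RUNX motif TGTGGT read on the other strand.
RUNX2 distal promoter: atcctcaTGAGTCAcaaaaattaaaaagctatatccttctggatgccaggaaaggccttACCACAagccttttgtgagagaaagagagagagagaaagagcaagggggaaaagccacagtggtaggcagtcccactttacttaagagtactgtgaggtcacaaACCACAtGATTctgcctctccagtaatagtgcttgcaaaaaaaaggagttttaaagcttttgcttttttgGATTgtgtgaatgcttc
RUNX2 proximal promoter: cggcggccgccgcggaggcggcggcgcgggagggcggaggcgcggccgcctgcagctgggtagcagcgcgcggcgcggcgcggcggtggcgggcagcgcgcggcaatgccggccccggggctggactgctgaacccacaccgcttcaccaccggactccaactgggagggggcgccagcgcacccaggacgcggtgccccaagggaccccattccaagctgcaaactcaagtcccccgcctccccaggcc
RUNX3 distal promoter: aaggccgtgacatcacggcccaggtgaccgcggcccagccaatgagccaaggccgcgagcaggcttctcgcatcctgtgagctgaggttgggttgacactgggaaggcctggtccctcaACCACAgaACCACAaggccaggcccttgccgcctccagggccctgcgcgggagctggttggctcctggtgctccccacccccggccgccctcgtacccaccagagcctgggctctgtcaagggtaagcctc
The distal promoters of RUNX2 and RUNX3 each held 2 RUNX motifs, against 0 in the proximal promoters of RUNX1, RUNX2 and RUNX3. Among all listed promoters 11% held TGTGGT and 5.84% TGCGGT, so most held neither. The 2 distal promoters were singled out after their values were seen. G and C made up 41.6% of the RUNX2 distal and 67.6% of the RUNX3 distal promoter. In the proximal promoters they made up 71.2% for RUNX1, 78% for RUNX2 and 78.4% for RUNX3. No peak lay on any of these promoters. In RUNX2 and RUNX3 the motif-bearing distal promoter was the farther from peaks. For RUNX3 this follows from the place of its only shared region, beyond the downstream end of the gene. The distal promoter of RUNX1 was not among the listed promoters, so its motifs were not counted. An sc8558 peak, with a score of 100.28, crossed that end of RUNX1. The long GFI1 form AATCACNGC had 0 matches in the listed promoters of the 7 genes and of RUNX1-AS1 and was held by 0.906% of all listed promoters. Of the 7 genes, 5 had an entry in the promoter table, with 7 promoters in all.

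RUNX3, which acts in lymphoid and myeloid cells, had 1 shared region and it lay outside the gene. The region, at chr1:24863311-24864859, scored 207.73 with ab21061 and 197.11 with sc8558, ranks 991 and 981 in their lists. Its peaks lay 35.3 and 35.5 kb beyond the downstream end of RUNX3, inside the noncoding RNA gene LOC105376876. CLIC4, which encodes a chloride intracellular channel protein, was the nearest protein-coding gene at 19.8 and 19.7 kb. Neither antibody had a peak inside the 65.6 kb span of RUNX3.

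**Figure D3:**
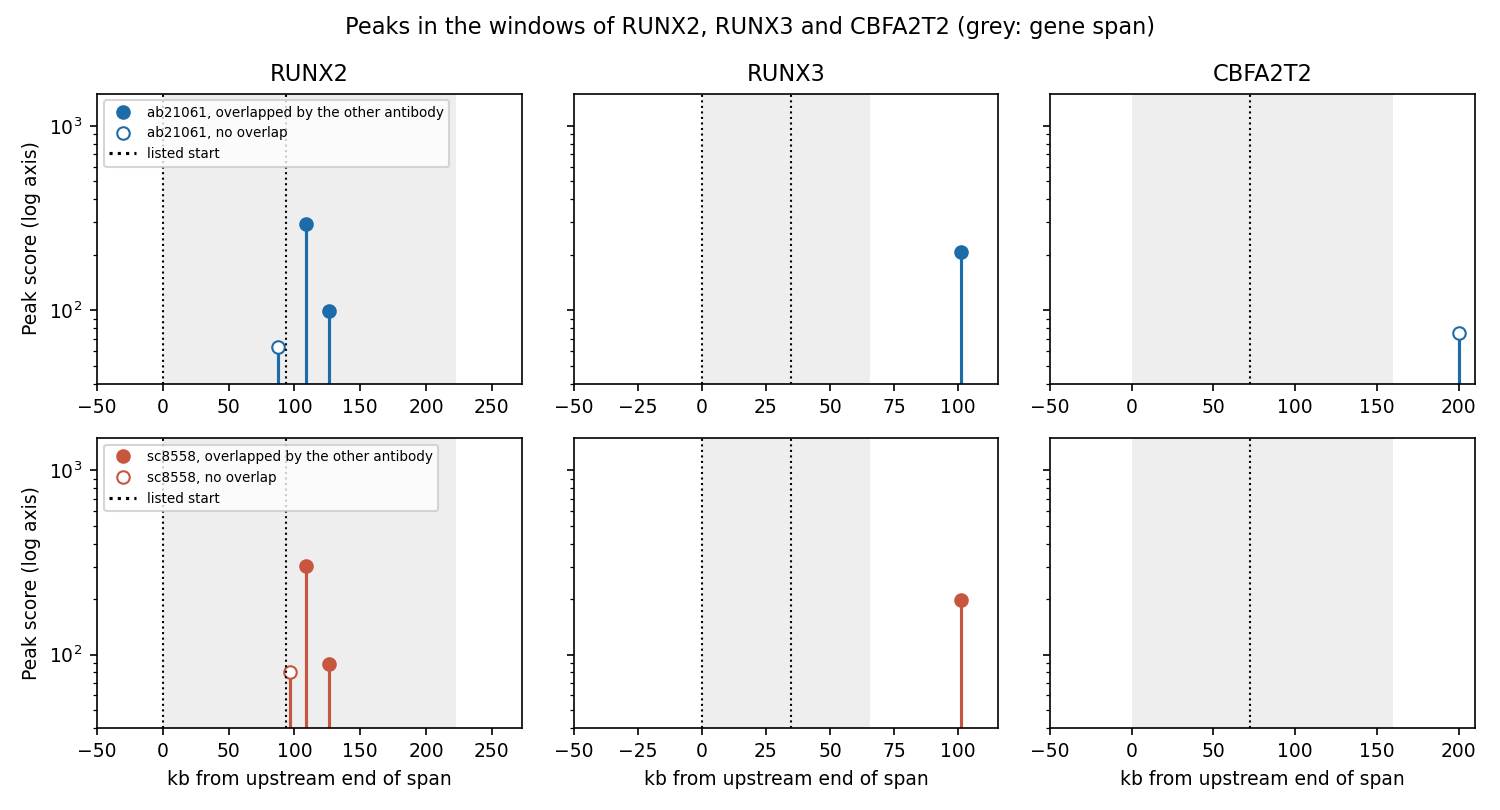
Peak scores (vertical, log axis) against the distance in kb from the upstream end of RUNX2, RUNX3 and CBFA2T2 (columns), for ab21061 (upper row) and sc8558 (lower row), with filled points for overlapped peaks, open points for the rest, grey bands for gene spans and dotted lines for listed starts. The RUNX2 pairs at 293.2 and 300.72 and at 99.37 and 88.31 lie inside the gene, whereas the RUNX3 pair and the CBFA2T2 peak lie beyond it.

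CBFB, the partner shared by all RUNX proteins, had no peak in its 172 kb window on chromosome 16. The nearest shared pair was 388 kb above it, with scores of 203.78 and 138.24, and lay 5.5 kb from AGRP.

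Among the ETO genes 0 of 3 had a shared region. RUNX1T1 on chromosome 8 was the most isolated of the 7 genes, with its nearest ab21061 peak 915 kb away (score 57.99, inside PIP4P2) and its nearest sc8558 peak 1743 kb away (169.65). CBFA2T3, also named ETO2, is a corepressor of blood stem and erythroid cells. Its nearest ab21061 peak, with a score of 55.71, lay 54.9 kb beyond the span and so just outside the window, and its nearest sc8558 peak lay 850 kb away. CBFA2T2, also named MTGR1, had the single ab21061 peak at chr20:33689883-33690743, with a score of 75.5. That peak lay just inside the window, 40.3 kb beyond CBFA2T2, and was closer to E2F1, a cell cycle transcription factor gene, at 3.93 kb upstream of its start. The nearest sc8558 peak was 42.9 kb from it, inside ZNF341, with a score of 124.32.

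Peaks found with both antibodies were mostly the stronger ones. The 5 overlapped ab21061 peaks scored 99.37 to 726.25 (median 260) and the 6 others 59.56 to 86.85 (median 69.3), so these ranges did not overlap. In the whole ab21061 list the medians were 108 and 62.4. The 5 overlapped sc8558 peaks scored 88.31 to 672.47 (median 268), and the 2 others 79.91 and 100.28. In the whole sc8558 list the medians were 106 and 61.6. From a score of 200 upward, all 4 ab21061 and all 3 sc8558 peaks here had an overlap, as had 1042 of 1044 and 946 of 948 peaks of the full lists. Between 100 and 150 these genes had 0 ab21061 peaks and 1 sc8558 peak, that of RUNX1 at 100.28. It was not overlapped, whereas 87.1% of such peaks in the sc8558 list were. Between 50 and 100, 1 of 7 ab21061 peaks of these genes was overlapped, against 46.8% of such peaks in the list, and 1 of 2 sc8558 peaks was, against 48% in its list.

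Of the peaks at these genes, 5 of 11 ab21061 peaks (45.5%, exact Clopper-Pearson 95% interval 16.7 to 76.6%) had an overlapping sc8558 peak, against 63.7% of all ab21061 peaks. For sc8558 it was 5 of 7 (71.4%, 29 to 96.3%), against 65.0% of all sc8558 peaks. Both intervals, which cover counting error only, include the share of the whole list. Midpoints of paired peaks were 34 to 180 bp apart. The median score was 86.8 for ab21061 peaks of these genes and 82.4 for the whole list, and for sc8558 it was 197 and 81.7.

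**Figure D4:**
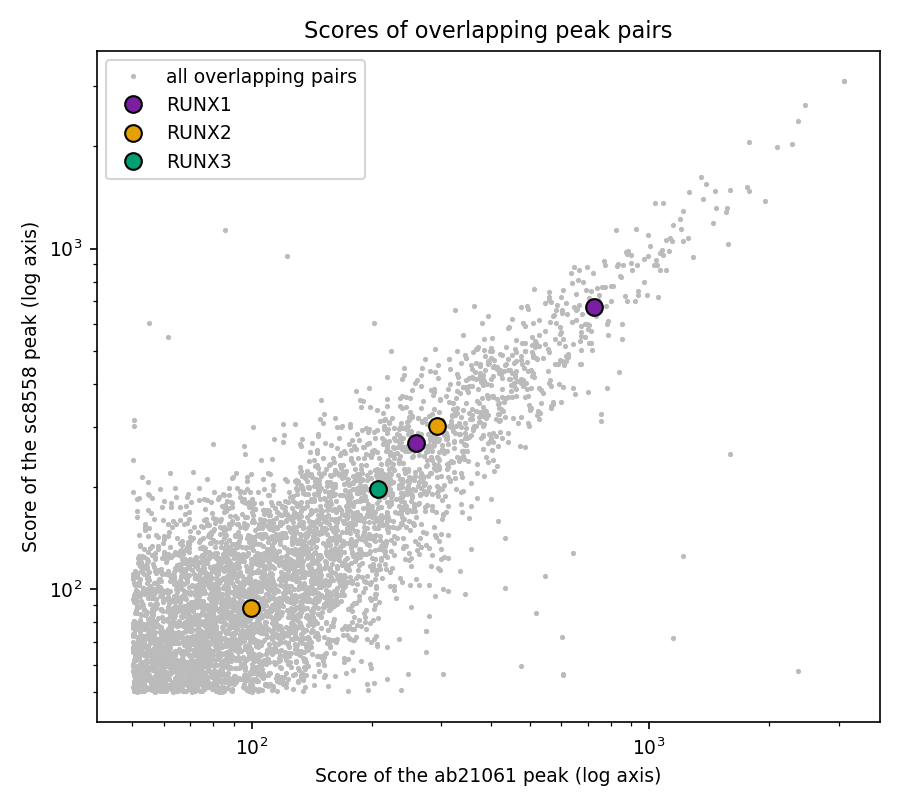
Score of the ab21061 peak (horizontal, log axis) and of the sc8558 peak it overlaps (vertical, log axis) for all overlapping pairs (grey) and for the 5 pairs of RUNX1 (purple), RUNX2 (orange) and RUNX3 (green). The RUNX1 pair at 726.25 and 672.47 lies in the upper part of the cloud and the weaker RUNX2 pair, at 99.37 and 88.31, in its dense lower part.

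Long genes have wide windows, so each gene was also read against genes of like size. RUNX1 and RUNX2, with 2 shared regions each, stood level at rank 365 with 823 of 20037 protein-coding genes tied there, and 5.92% of all protein-coding genes had 2 or more. Among the 847 other genes with a window within 20% of that of RUNX1 (362 kb), 17.9% had at least as many shared regions. For RUNX2 it was 14.6% of 1077 genes and for RUNX3 28.3% of 5033. Per Mb of window, RUNX1 had 5.53 shared regions, RUNX2 6.2 and RUNX3 6.04, ranks 3860, 3578 and 3647. RUNX1, RUNX2 and RUNX3 thus had numbers of shared regions that many genes of their size had as well. Genes of the window sizes of CBFB, RUNX1T1, CBFA2T2 and CBFA2T3 had a shared region in 28.8, 35.6, 36.6 and 31.5% of cases, so a count of 0 was the commoner outcome for each. The genes most like RUNX1 in number of shared regions and then in window length were FHIP1A, CALD1 and AGTPBP1, each with 2 regions in windows of 361, 359 and 359 kb.

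**Figure D5:**
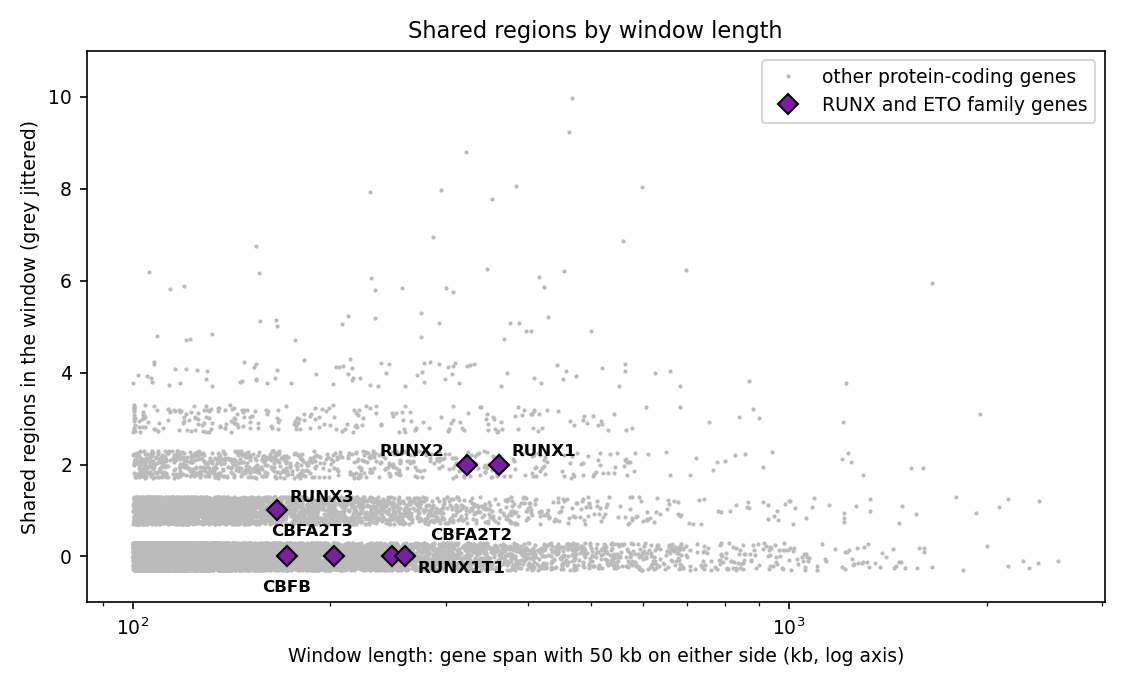
Number of shared regions in the window (vertical; grey points jittered) against window length in kb (horizontal, log axis) for all protein-coding genes, with the 7 RUNX and ETO family genes as purple diamonds. RUNX1 and RUNX2 stand at 2 and RUNX3 at 1, within the spread of genes of their size, and the other 4 genes stand at 0.

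Genes that work with these families were counted in 4 lists under the same window rule, beside the 24.3% of all protein-coding genes with a shared region. Of 13 blood transcription factors acting with RUNX1, 7 had one (53.8%), among them GFI1 with 6 regions, GFI1B with 4, IKZF1 with 3 and MYB with 2. Their regions with the highest ab21061 score scored 152.07 with ab21061 and 94.84 with sc8558 at GFI1, 474.34 and 263.94 at GFI1B, 225.27 and 318.58 at IKZF1, and 566.47 and 699.07 at MYB. ETV6, LMO2 and LYL1 had 1 region each. TAL1, GATA2, SPI1, FLI1, CEBPA and ERG had no shared region. Of 16 corepressors and E proteins that RUNX or ETO proteins bind, 5 had one (31.2%). TCF12, which encodes the E protein HEB, a partner of ETO proteins, had 4 regions, and HDAC3, SIN3A, NCOR1 and TLE4 had 1 each. Of 14 coactivators and modifiers, 5 did (35.7%), with 1 region each at CREBBP, KMT2A, HIPK2, CDK6 and WWTR1. Of 17 blood genes described as RUNX1 targets, 4 did (23.5%), namely MPO and PTPRC with 3 regions, CSF1R with 2 and ELANE with 1. The median window was 134 kb for the transcription factors, 196 kb for the corepressors and E proteins, 203 kb for the coactivators and modifiers and 117 kb for the targets, against 124 kb for all protein-coding genes. Among genes sized like RUNX1, RUNX2 or RUNX3, with windows of 166 to 362 kb, 28.3 to 39% had a shared region, so the shares of the corepressor and coactivator lists were near those of genes with wide windows. The lists were chosen with earlier results of these data known, and the transcription factor list holds GFI1, the protein both antibodies are labelled against. Its share is therefore not independent of these data. These counts were not tested.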

How the data were processed

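Peaks of 2 chromatin immunoprecipitation libraries from NB4 cells, 1 per antibody, were used as deposited. Bowtie2 2.2.9, MACS 1.4.2 and hg38 were used by the authors, per the submitters' processing notes. Options, read filters and any control were not given in the sources used here. Each score in the deposited files is the authors' peak score, larger for a smaller p-value from MACS. Peaks were listed per library, and depth is unknown.

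The members and lists were chosen with earlier results of these data known. Genes, starts and promoter sequences came from RefSeq tables of GRCh38.p14, the patch release of the same build. No genome was given, so peaks were not searched for motifs, and exons were not used. Overlap counted from 1 bp. Motifs were searched on both strands of the 250 bases before each listed start. The genes named are the 7 members, the genes nearest to their peaks, the 3 genes most like RUNX1 and list members with a shared region. FHIP1A, CALD1 and AGTPBP1 follow from that rule. RUNX1-AS1, the AP-1 capitals and the distal promoters of RUNX2 and RUNX3 were singled out after their values were seen. Shares have exact Clopper-Pearson 95% intervals. No p-value was computed, since neither antibody had a replicate. Alternatives changed the window, the score, the assignment of peaks and the overlap rule. Counting was tested on simulated data. Calculations used scipy 1.17.1, pandas 2.3.3 and numpy 2.4.6 under Python 3.11.15, and figures matplotlib 3.10.9.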

Additional observations from a re-analysis of the deposited data

How the results depend on the processing

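Of 66 values recomputed under 8 alternatives, 52 stayed within 1.5 times the reported value or within its interval. With both lists limited to scores of at least 100, 4 ab21061 peaks of these genes remained by construction, and 100% of them were overlapped. The number of the 7 genes with a shared region was then 3, as reported, while 12.6% of all protein-coding genes had one. It was 2 with the gene span alone (8.35% of all genes), 2 with 10 kb on either side (12.8%) and 4 with 100 kb on either side (35.9%), against 3 and 24.3% with 50 kb. It was also 2 with peaks nearest to a member, for which no share of all genes was computed. The settings that gave 2 leave out the RUNX3 region. By number of shared regions, the rank of RUNX1 was 161 with 10 kb on either side and 69 at a score of 100 or more. RUNX2 ranked 161 with 10 kb, and RUNX3 353 at the higher score. Genes with equal numbers share a rank. With 10 kb RUNX3 had no shared region, so its rank of 2561 is the one shared by all genes with none. Per Mb, RUNX1 ranked 1965 with 10 kb and 1886 at the higher score, RUNX2 1826 and 2343, and RUNX3 1766 at the higher score. At that score 3 corepressor and E protein genes and 1 coactivator or modifier gene had a shared region. The cause was not tested, beyond the smaller number of peaks that a higher score leaves. No paired analysis was possible because each antibody had 1 library, and for the same reason no library was left out. Since depth is unknown, a peak missing from one list cannot be told apart from a peak below its detection.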
